A study of Homo sapiens with 7 samples.

Results

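The segment of human chromosome 11 from 61 to 70 Mb on hg19 lies within bands 11q12 to 11q13 and is known as gene-rich. It held 742 of the 64657 MYCN summits listed for Kelly cells. A summit is the position of locally highest ChIP signal inside a called interval, and members were all summits on chromosome 11 at or beyond 61 Mb and before 70 Mb. The rule uses position alone, though the segment was picked with earlier results of these data known. The other 2616 summits of chromosome 11 served for comparison.

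Kelly is an established human neuroblastoma line in which MYCN is amplified and ALK, a receptor tyrosine kinase, carries an activating mutation. Binding of MYCN was mapped with ChIP-seq, the sequencing of immunoprecipitated chromatin, in TAE684-resistant Kelly cells given the ALK inhibitor TAE684 at 1 µM, and in TAE684-sensitive Kelly cells given the vehicle DMSO, both for 48 h. The resistant cells had 2 MYCN ChIP samples and 2 input samples, and the sensitive cells had 2 MYCN ChIP samples and 1 input sample, where input is sheared chromatin sequenced without antibody. The labels give 1 peak list for both ChIP samples of a state, and the lists of resistant and sensitive cells were identical in all 64657 rows, with every peak name taken from the sensitive list. The values below therefore describe the sensitive, DMSO-treated cells, they carry no replicate error, and no test across samples was possible.

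MYCN, a member of the MYC family, dimerises with MAX and binds E-boxes, with the sequence CACGTG as the preferred form and other CANNTG forms as weaker ones. In neuroblastoma with amplified MYCN it is known to occupy a large number of active promoters and enhancers. By textbook maps, the segment carries the genes of the nuclear long non-coding RNAs NEAT1, which scaffolds paraspeckles, and MALAT1, which localises to nuclear speckles. It also carries MEN1, which encodes the tumour suppressor menin, and CCND1, which encodes cyclin D1, an activator of the kinases that drive entry into S phase. No hg19 gene annotation or genome sequence was used here. Genes are named by textbook map position alone, the number of genes in the segment was not analysed here, and no sequence under a summit was read.

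The strongest site of the segment lies, by textbook map position, at MALAT1, so the promoter windows that RefSeq gives for this gene are shown. They come from GRCh38.p14, a different build from that of the peaks, and were not matched to summits by coordinates. Each runs from 250 bases before to 50 bases after a transcription start, on the plus strand, at chr11:65497488-65497787 and chr11:65498795-65499094 of GRCh38.p14. Capitals mark matches to CANNTG, which reads the same way on both strands and includes CACGTG.
MALAT1 upstream start: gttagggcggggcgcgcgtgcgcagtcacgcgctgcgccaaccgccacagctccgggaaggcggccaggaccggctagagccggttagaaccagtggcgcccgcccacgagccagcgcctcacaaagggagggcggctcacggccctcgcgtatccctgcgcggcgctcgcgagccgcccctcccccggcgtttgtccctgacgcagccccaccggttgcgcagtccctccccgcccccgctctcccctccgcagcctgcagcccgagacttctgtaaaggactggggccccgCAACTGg
MALAT1 downstream start: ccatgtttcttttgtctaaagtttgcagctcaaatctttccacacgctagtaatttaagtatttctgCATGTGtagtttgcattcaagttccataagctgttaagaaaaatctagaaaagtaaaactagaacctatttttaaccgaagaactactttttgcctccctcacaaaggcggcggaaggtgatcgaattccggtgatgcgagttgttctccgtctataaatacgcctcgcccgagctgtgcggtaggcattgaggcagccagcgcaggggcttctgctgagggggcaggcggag
Each of these windows held 1 match to CANNTG and 0 matches to CACGTG. Among the 35116 promoter windows of the same length in the RefSeq table, 68.7% held CANNTG and 7.26% held CACGTG. These are counts of letters in windows and say nothing about what binds there.

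MYCN sites lay densely along most of the segment. The 742 summits fell in 542 separate intervals and gave 82.4 summits per Mb, against 20.8 per Mb over the rest of chromosome 11 up to its last peak. The ratio of these densities was 3.96 (exact conditional 95% interval 3.65 to 4.30, covering counting error only, since neighbouring summits are not independent). The segment made up 6.68% of the length of chromosome 11 and held 22.1% of its summits. Its intervals covered 242 kb, or 2.68% of the segment, against 0.613% of the rest of the chromosome. Of the 2865 overlapping windows of 9 neighbouring 1-Mb bins on chromosomes 1 to 22 and X, 5 held more summits, 3 of them on chromosome 17 and 2 on chromosome 9. The median window held 146 summits and the fullest 879. Lengths count unmappable sequence, and copy number was not analysed here.

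Along the segment, the number of summits per 1-Mb bin was 81 from 61 Mb, 82 from 62 Mb, 76 from 63 Mb, 128 from 64 Mb, 107 from 65 Mb, 83 from 66 Mb, 74 from 67 Mb, 57 from 68 Mb and 54 from 69 Mb. The centre of the segment was its densest part, and its distal end the sparsest. The bins at 64 and 65 Mb were the fullest of the 135 bins of chromosome 11, and 7 of the 9 bins were among the 10 fullest. Over all 2732 occupied bins of chromosomes 1 to 22 and X, the bin at 64 Mb ranked 8 and that at 65 Mb ranked 20. The other 126 bins of chromosome 11 had a median of 16 summits, and 11 of them had none. Of these, 8 held more than the 54 summits of the sparsest bin of the segment. The first Mb of the short arm, with 84 summits, was the single one to exceed the segment's median bin of 81.

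The edges of the segment were steeper on the side of the centromere. The bin just before 61 Mb held 27 summits and the bin just after 70 Mb held 34, while the next one, from 71 Mb, held 52. The 10 Mb beyond the segment, from 70 to 80 Mb, held 42.1 summits per Mb, and the 6 Mb before it, from 55 to 61 Mb, held 22.0. The first member had its summit at 61018463 with a fold enrichment of 3.65, and the last summit before it lay at 60955207 with 10.7. The last member was at 69980295 with 3.90, and the next summit beyond was at 70015173 with 3.89.

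**Figure D1:**
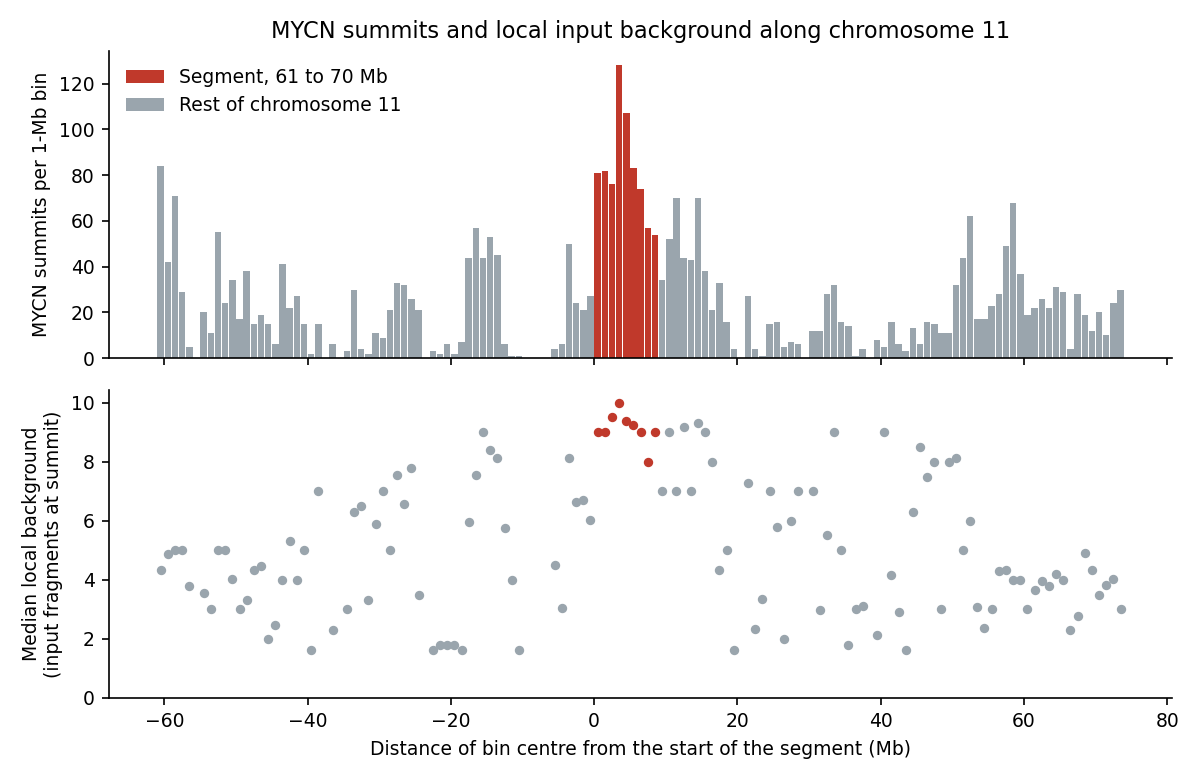
Number of MYCN summits per 1-Mb bin (upper panel, bars) and median local background of the summits in each occupied bin in input fragments (lower panel, points), against the distance of the bin centre from the start of the segment in Mb. The 9 bins of the segment hold 54 to 128 summits with median backgrounds of 8 to 10.0, and the fullest of the other bins holds 84.

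At a finer scale the summits alternated between dense blocks and empty stretches. Of the 90 bins of 100 kb in the segment, 9 held no summit (10.0%), against 547 of 1258 (43.5%) in the rest of the chromosome. The median bin of the segment held 7.5 summits. At least 15 summits were found in 16 bins, which together held 298 summits, or 40.2% of the members, while 12 bins of the rest of chromosome 11 reached that number.

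The fullest of these bins, from 64 to 64.1 Mb, held 32 summits in 17 intervals and ranked 9 among the 15953 occupied 100-kb bins of chromosomes 1 to 22 and X. The fullest 100-kb bin of the rest of chromosome 11 held 24. The summits in this block were many and moderate: their median fold enrichment was 4.58 and the highest was 12.7. It also contained the lowest member of the segment, a summit at 64068274 with a fold enrichment of 2.02, 52 ChIP fragments and a background of 16.0. There were 4 further bins with 20 summits each.

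The longest stretch without a summit ran from 62791818 to 63348798, or 557 kb, and separated the dense blocks before 63 Mb from those after it. The next longest were 200.7 kb from 68228706, 187 kb from 61891666 and 187 kb from 69708230. Of the 541 gaps between neighbouring intervals, 7 exceeded 100 kb and the median was 7.66 kb. Neighbours were close: the nearest other interval was a median of 3.06 kb away, against 7.28 kb in the rest of the chromosome. A neighbour within 10 kb was found for 82.1% of the intervals (95% CI 78.6 to 85.2), against 56.1% (95% CI 53.9 to 58.3). A neighbour within 1 kb was found for 35.1% (95% CI 31.0 to 39.2), against 27.7% (95% CI 25.8 to 29.7). Closer spacing goes with higher density by arithmetic, and how many close neighbours are parts of 1 enriched stretch was not tested.

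**Figure D2:**
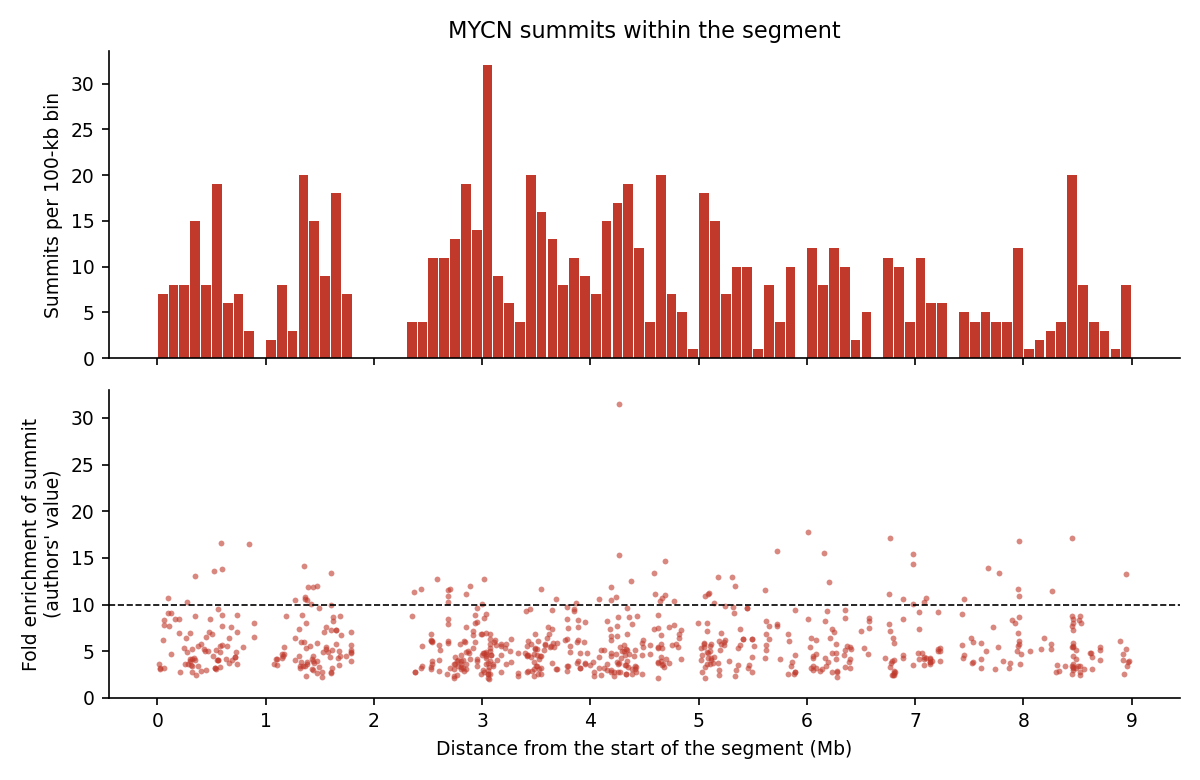
Number of MYCN summits per 100-kb bin (upper panel) and fold enrichment of each of the 742 summits (lower panel, points, dashed line at 10) against the distance from the start of the segment in Mb. A block of 32 summits lies just beyond 3 Mb, the stretch without a summit of 557 kb lies near 2 Mb, and 1 summit, with a fold enrichment of 31.5, stands above all others.

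Sites of the segment were moderately enriched over input, and strong ones made up a smaller share than in the rest of the chromosome. The authors' fold enrichment, the ChIP pileup over a local background, had a median of 5.02 with quartiles of 3.64 and 7.08, against 5.67 with quartiles of 4.17 and 7.94 in the rest of chromosome 11. The median over all 64657 summits was 5.35. A fold enrichment of at least 10 was reached by 74 members, or 9.97% (95% CI 7.91 to 12.4), against 367 summits, or 14% (95% CI 12.7 to 15.4), in the rest of the chromosome and 12% of the whole list. The share of the whole list lay inside the interval of the members. A fold enrichment of at least 20 was reached by 1 member, or 0.135% (95% CI 0.00341 to 0.749), against 32 summits, or 1.22% (95% CI 0.838 to 1.72), and 0.778% of the whole list.

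The number of ChIP fragments ran the other way. Fragment numbers were solved from the p-value and the fold that the authors deposited for a summit. Over members lay 79 ChIP fragments at the median (quartiles 52.25 and 119), against 51 (quartiles 34 and 80) in the rest of chromosome 11. At least 200 ChIP fragments lay over 35 members, or 4.72% (95% CI 3.31 to 6.50), against 40 summits, or 1.53% (95% CI 1.09 to 2.08). Over the whole list the median was 63 ChIP fragments, and 3.73% of summits had at least 200, a share inside the interval of the members. The −log10 q-value, which depends on both ChIP and background, had a median of 17.0 in the segment, against 12.7. The median interval was 330 bp wide, against 266 bp in the rest of chromosome 11 and 279 bp in the whole list.

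The local background moved with these values. It had a median of 9.10 input fragments at members, against 5 in the rest of chromosome 11. The genome-wide mean was 1.61, the lowest background in the list. It lay within 0.001 of that mean at 2 members, or 0.270% (95% CI 0.0327 to 0.970), against 257 summits, or 9.82% (95% CI 8.71 to 11). It exceeded 12 at 140 members, or 18.9% (95% CI 16.1 to 21.9), against 126 summits, or 4.82% (95% CI 4.03 to 5.71). The whole list lay nearer to the segment in the share above 12, which was 15.7%. Its median background was 7.56, and 7.01% of its summits lay within 0.001 of the genome-wide mean. The fold enrichment has the background in its denominator, and a higher background asks for more ChIP fragments before a summit is called. The part of the background in the lower fold enrichment and the higher density of the segment was not tested.

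Between summits of like background, the median fold enrichment was lower in the segment in 3 of 4 classes and higher in the class above 8 and up to 12. At backgrounds up to 4, it was 5.58 at 24 members, against 6.29 at 1036 other summits of the chromosome. At backgrounds above 4 and up to 8, the median fold enrichment was 4.83 at 229 members, against 5.37 at 981 others, with medians of 55 and 56 ChIP fragments. At backgrounds above 8 and up to 12, it was 5.17 at 349 members, against 4.87 at 473 others, with medians of 89 and 81 ChIP fragments. Above 12 it was 4.55 at 140 members, against 4.70 at 126 others. The share with a fold enrichment of at least 10 was lower in the segment in the classes up to 4 (12.5%, against 17.3%) and above 4 and up to 8 (10.0%, against 13.8%). It was higher in the classes above 8 and up to 12 (12.6%, against 11%) and above 12 (2.86%, against 0.794%). The summits of the sets were spread differently over these classes: 47.0% of the members lay in the class above 8 and up to 12, against 18.1% of the others, and 3.23% lay in the class up to 4, against 39.6%. With backgrounds limited to 4 to 12, the share with a fold enrichment of at least 10 was 11.6% in the segment, against 12.5%, and the interval of this difference included 0 (−3.94 to 2.36 percentage points). Within the same limits the median fold enrichment was 5.06 in the segment, against 5.30, and the interval of this difference also included 0 (−0.53 to 0.06). Interval width, counted once per summit, was smaller at the median in the segment in every class, unlike the medians over all intervals. From the lowest class to the highest it was 188.5, 283, 569 and 589.5 bp, against 231, 451, 678 and 711.5 bp at the others. Between fold enrichment and ChIP fragments, Spearman's rho was 0.77 over the 742 members, against 0.51 over the 2616 others, and both quantities are built from the same pileup.

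**Figure D3:**
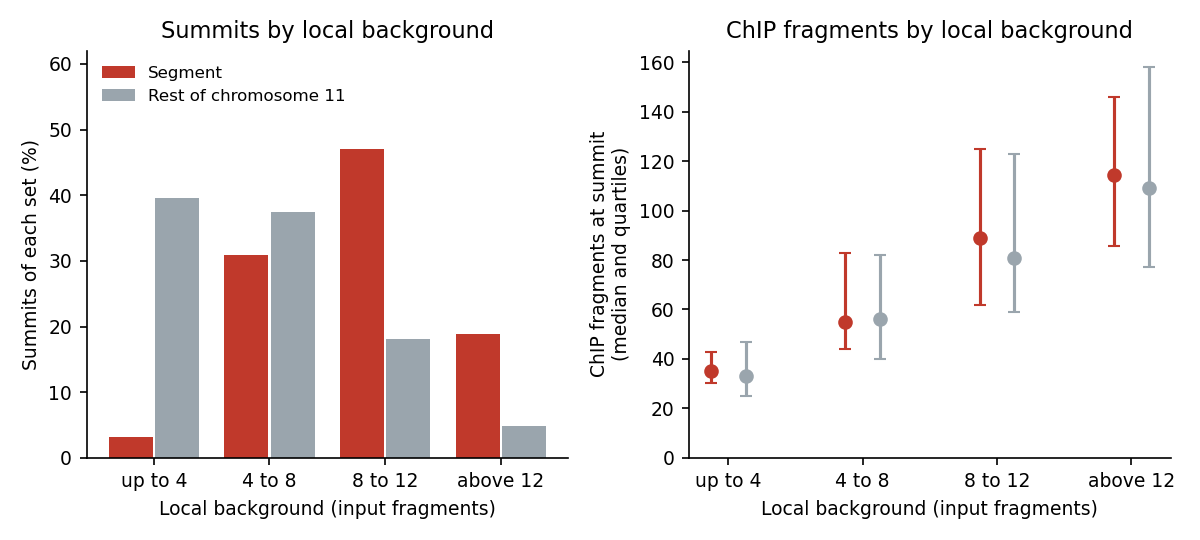
Share of the summits of each set in 4 classes of local background (left, bars in percent) and ChIP fragments per summit in these classes (right, points for medians, bars from lower to upper quartile), for the segment and the rest of chromosome 11. In the class from 8 to 12 input fragments lie 47.0% of the segment's summits and 18.1% of the others, with medians of 89 and 81 ChIP fragments.

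**Figure D4:**
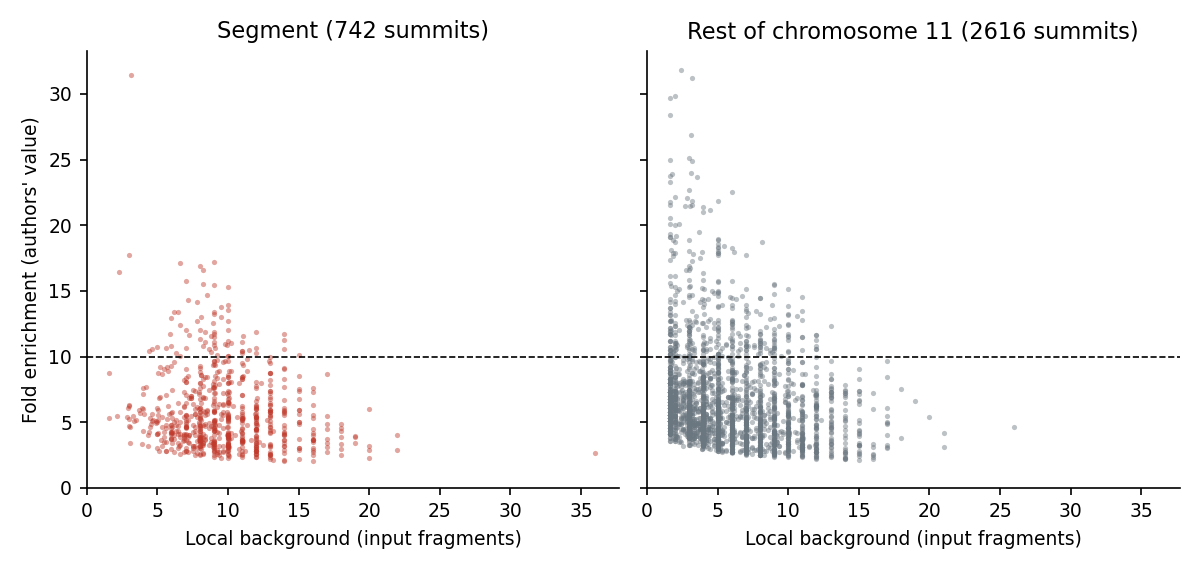
Fold enrichment against local background in input fragments for each summit of the segment (left) and of the rest of chromosome 11 (right), with a dashed line at a fold enrichment of 10. Summits with a background within 0.001 of the genome-wide mean, the lowest in the list, number 2 in the segment and 257 in the rest, and 1 summit of the segment lies above a fold enrichment of 20.

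The nearest stretches of the chromosome shared part of this pattern. The 14 Mb on both sides, from 57 to 61 Mb and from 70 to 80 Mb, held 543 summits, whose background was 8 and whose ChIP fragments numbered 66 at the median. The median fold enrichment was 5.02 in the segment, against 5.30 in these neighbours, a difference of −0.28 with an interval of −0.61 to 0.06. A fold enrichment of at least 10 was reached by 9.97% in the segment, against 13.3% in these neighbours, and the interval of the difference of −3.29 percentage points included 0 (−7.05 to 0.34). The segment was denser than these neighbours too, with 82.4 summits per Mb, against 38.8, a ratio of 2.13 (95% interval 1.90 to 2.38). This comparison was chosen after the values were seen.

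Bins of the segment differed less in median fold enrichment than in number of summits. Their share with a fold enrichment of at least 10 ran from 3.91% to 14%. The median fold enrichment per 1-Mb bin lay between 4.72 from 63 Mb and 5.60 from 66 Mb, and the median ChIP fragments between 58.5 from 69 Mb and 90 from 66 Mb. The fullest bin, from 64 Mb, had 5 of its 128 summits at a fold enrichment of at least 10, or 3.91%, the lowest share of the 9 bins, together with the highest median background, 10.0. The bin from 65 Mb had 14 of 107, or 13.1%, with a median background of 9.38. The bin from 63 Mb had 9 of 76, or 11.8%, with a median background of 9.52. The bin from 68 Mb had 8 of 57, or 14%, with the lowest median background, 8. From 69 Mb the number was 3 of 54, or 5.56%, with a lower median background than from 63 Mb or 65 Mb. These shares rest on 3 to 14 summits per bin, and a link between share and background across the bins was not tested.

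The strongest member stood apart from all others. Its interval ran from 65266329 to 65266674. At the summit, 65266496, 200 ChIP fragments over a background of 3.11 gave a fold enrichment of 31.5, with 149.5 as the −log10 q. It ranked 2 by fold enrichment among the 3358 summits of chromosome 11 and 54 in the whole list, while the next member, with 17.7, ranked 61 on the chromosome. A second strong interval lay just before it, from 65264780 to 65265385. Its summit, at 65265069 and 1.43 kb from the other, had 261 ChIP fragments over a background of 10.0 and a fold enrichment of 15.3. A weak interval with a fold enrichment of 3.72 lay between them. By textbook map position, these 3 intervals lie at the start of MALAT1, whose RNA is among the most abundant nuclear transcripts of human cells. Of the 2 strong summits, the one with more ChIP fragments had the lower fold enrichment, over the higher background.

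A neighbouring group lay, again by textbook map position, at the start of NEAT1. Its interval from 65189451 to 65190568 held 3 summits with fold enrichments of 11.9, 10.5 and 2.79 and with 239, 203 and 55 ChIP fragments. Within 100 kb of the strongest member there were 41 summits in 33 intervals, of which 5 summits reached a fold enrichment of at least 10. These were the 2 strong summits at MALAT1, 2 of those at NEAT1 and a summit at 65239037 with 10.8.

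The third strongest member marked a compact cluster at the distal end. Its interval ran from 69451052 to 69452287 and held 3 summits, the strongest at 69451430 with a fold enrichment of 17.2, 266 ChIP fragments and a background of 9. Within 10 kb of it there were 17 summits in 9 intervals, and it was the single one to reach a fold enrichment of at least 10. One interval there, from 69455248 to 69456346, held 4 summits with fold enrichments of 5.86, 5.41, 5.54 and 2.99 and with 83, 108, 128 and 59 ChIP fragments. Textbook maps place the start of CCND1 in this cluster. The 100-kb bin around it held 20 of the 54 summits found from 69 to 70 Mb.

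The other strong members were spread over the segment. The second strongest, at 67008701, had a fold enrichment of 17.7 with 109 ChIP fragments over a background of 3. A site at 67771655 reached 17.1 over a background of 6.58, one at 68960026 reached 16.9 with 235, and one at 61584450 reached 16.6 with 238. A site at 61849680 reached 16.5 with only 82 fragments, over a background of 2.25. Sites at 66726232, 67159316 and 67981351 reached 15.8, 15.5 and 15.4, with 195, 222 and 239 fragments. The 10 strongest members lay in 6 of the 9 bins, and 6 of them were alone in their interval. In the remaining bins the strongest sites were at 62359099 with a fold enrichment of 14.1, at 63580810 with 12.7 and at 64014174 with 12.7.

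A ranking by ChIP fragments gave other sites. Most fragments, 272, lay over the summit at 63439041, whose fold enrichment was 11.7 over a background of 14. It was followed by 69451430 with 266, by 66095950 with 262 fragments and a fold enrichment of 11.3, and by 65265069 with 261. The strongest member by fold enrichment, with 200 fragments, was not among the first 10 of this ranking.

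Most intervals of the segment had a single summit. Of the 542 intervals, 398 had 1 summit. There were 2 summits in 104, 3 in 28, 4 in 9, 5 in 2 and 6 in 1. At least 2 summits were found in 26.6% of the intervals (95% CI 22.9 to 30.5), against 22.0% (95% CI 20.2 to 23.9) in the rest of chromosome 11. The share in the whole list was 23.6%, inside the interval of the segment. The difference from the rest of chromosome 11, 4.54 percentage points, had an interval of 0.41 to 8.87. At least 3 summits were found in 7.38%, against 7.01%, a difference whose interval included 0 (−2.01 to 3.13), and in 7.80% of the whole list. For at least 2 summits, the difference was 1.95 percentage points among summits with a fold enrichment of at least 5 (−2.43 to 6.87). It was 3.31 among those whose −log10 q reached 10 (−1.24 to 8.16), and both intervals included 0. Set against the 14 Mb beside the segment, the share was 26.6% in the segment, against 26.4% in these neighbours, a difference of 0.14 percentage points with an interval of −5.82 to 5.99. The median fold enrichment was 5.05 for members alone in their interval, 4.86 in intervals with 2 summits, 5.29 with 3 and 4.53 with 4 or more, while the median ChIP fragments were 73, 84, 85.5 and 93.

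The interval with 6 summits ran from 64071863 to 64073919, in the fullest 100-kb block. It was 2057 bp wide, the widest of the segment, and its summits had fold enrichments of 6.28, 5.36, 3.97, 5.06, 5.80 and 2.60 with 96, 107, 79, 101, 125 and 40 ChIP fragments. No summit of this interval reached a fold enrichment of 10, and its backgrounds ran from 8.96 to 13, against a median of 9.10 over all members. An interval with 5 summits, from 64036641 to 64038029, lay in the same block and reached a fold enrichment of 6.97. The other interval with 5 summits, from 64781013 to 64782522, was stronger, with fold enrichments of 8.43, 6.28, 9.68, 3.45 and 2.92 and with 143, 165, 208, 90 and 45 ChIP fragments.

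Members at the extremes of the background showed its reach. The highest value, 36.0 input fragments or 22.4 times the genome-wide mean, was found at 62609151, where 150 ChIP fragments gave a fold enrichment of 2.63. In the same interval, from 62608210 to 62609326, another summit at 62608665 had 148 ChIP fragments over a background of 6.16 and a fold enrichment of 13.4. The 2 members within 0.001 of the genome-wide mean were at 63348890, with 34 ChIP fragments and a fold enrichment of 8.75, and at 67525592, with 20 ChIP fragments and 5.30. The summit at 63348890 is the first one after the stretch of 557 kb without a summit.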

How the data were processed

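The deposited peak lists of sensitive and resistant Kelly cells were compared byte by byte and were identical, so the list of the sensitive cells was used. The build hg19 and the programs MACS2 2.1.1, deepTools 2.2.4, Picard, SAMtools 1.3.1 and STAR 2.5.1b are listed in the submitters' processing notes, with no settings. The sources used here do not say how replicates were combined or duplicates handled. Per summit, the authors deposited a fold enrichment ratio, a −log10 p-value, a −log10 q-value and an integer score (not used here). Summit positions are printed counted from 1.

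ChIP fragments and local background were solved together from the fold, taken as scaled pileup plus 1 over background plus 1, and from the Poisson p-value. With a scale of 0.641, all 64657 summits had a whole fragment number that met the −log10 p to within 0.0005. Tested on simulated peaks with scales of 0.6, 0.7 and 0.9, the exact number returned at 2778 of 2778, 2690 of 2748 and 2574 of 2622. The ChIP to input fragment ratio implied by this scale was 1.56. Depth is known here through these fragment numbers alone.

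The segment and the lists were chosen with earlier results of these data known. Shares carry exact (Clopper-Pearson) 95% intervals, differences carry intervals combined from those of both sets (exact order-statistic intervals for medians), and all of them cover counting error only. Sites named are the 10 members of highest fold enrichment, the strongest of each 1-Mb bin, the 3 intervals with most summits and the extremes of the background. The sites around MALAT1, NEAT1 and CCND1, and those ranked by ChIP fragments, were chosen after their values were seen. Promoter shares, gene lists and E-boxes under summits were not analysed, for want of an hg19 reference. Software comprised scipy 1.17.1, pandas 2.3.3, numpy 2.4.6 and matplotlib 3.10.9 under Python 3.11.15.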

Additional observations from a re-analysis of the deposited data

How the results depend on the processing

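No paired analysis was possible because each list stands for both ChIP samples at once, and no replicate could be left out for the same reason. The 742 members numbered 372 with a fold enrichment of at least 5. The density ratio of 3.96 was 4.51 for summits whose −log10 q reached 10, 3.24 with a fold enrichment of at least 5, 3.62 over 1-Mb bins with at least 1 summit and 2.13 against the neighbouring 14 Mb. Leaving out each 1-Mb bin of the segment in turn gave 3.69 to 4.13. The difference in the share with a fold enrichment of at least 10, −4.06 percentage points, was −8.70 for summits whose −log10 q reached 10, −0.92 with backgrounds of 4 to 12 and −3.29 against the neighbouring 14 Mb, and the intervals of the last 2 included 0. The difference in median fold enrichment, −0.65, was −1.32 for summits whose −log10 q reached 10, −0.24 with backgrounds of 4 to 12 and −0.28 against the neighbouring 14 Mb. The intervals of the last 2 included 0 here too (−0.53 to 0.06 with backgrounds of 4 to 12). The difference in intervals with several summits, 4.54 percentage points, was 3.31 for summits whose −log10 q reached 10, 1.95 with a fold enrichment of at least 5, 0.37 for at least 3 summits and 0.14 against the neighbouring 14 Mb, and each of these intervals included 0. Of 32 alternatives run, 20 stayed within the 95% interval of the value reported (for a number, within 1.5 times). The other 12 moved beyond these limits, and 0 turned a direction round. Among the 20 are the 9 runs of the density ratio that each left out 1 bin of the segment. The neighbouring stretches, and the background limit for the share, were chosen after seeing the data. The q-value and the fold rest on the same ChIP fragments and background, so a limit on q is not independent of the fold. With that limit, 14.5% of the members and 23.2% of the rest of chromosome 11 reached a fold enrichment of at least 10. The causes of these shifts were not tested. The start-site and E-box alternatives were not run, for want of an hg19 reference.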
